A study of Mus musculus with 7 samples.

Results

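Genes on the autosomes whose Cast share of RNA lay near equality in these samples were compared between their Cast and Dom alleles. Copy number itself was not measured. The members were genes on the 13 autosomes other than 1, 5, 8, 11, 12 and 14 with at least 50 fragments assigned to a parental genome in every sample. There were 5744 such genes, of 14764 annotated on those chromosomes and 22556 in the whole table. The genes were selected on their allelic counts, and the chromosomes were chosen by their Cast share in these samples, so that chromosome-wide levels are a description, while the difference between alleles of single genes was not used in the choice.

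The samples were female F1 hybrid mouse embryonic stem cells (mESCs) of 129S (Dom) and CAST/EiJ (Cast) parentage, assayed by chromatin-associated RNA sequencing (ChrRNA-seq), which captures RNA still attached to chromatin and therefore many introns. In iXist-ChrX-Dom (4 samples) a TetOn promoter replaced the endogenous Xist promoter on the Dom X chromosome, and in iXist-ChrX-Cast (3 samples) on the Cast X. Both lines descend from a single F1 parental line, each group is 1 clonal line by its labels, and every sample was kept undifferentiated with LIF while 1 µg/mL doxycycline induced Xist for 10 days. No source says that replicates are separate derivations, so p-values measure the spread between these samples, which may be technical. Because every sample comes from 1 cross, a difference between Cast and Dom DNA and a difference between maternal and paternal copies cannot be told apart. Cells had been grown on mitomycin C-treated mouse fibroblast feeders, removed by pre-plating, whose strain is not given in the sources used here. The data of iXist-ChrX-Cast replicates 1 and 2 were deposited under another clone name than their labels and replicate 3 carry, so whether that group is 1 clone is not certain. For iXist-ChrX-Dom replicates 3 and 4 the description gives d1 where the title gives d10, and the main counts are also given without them. Xist itself, the engineered gene, matched the labels, with a Cast share of 0.0773% to 0.125% in iXist-ChrX-Dom and of 94.0% to 94.7% in iXist-ChrX-Cast.

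In an F1 hybrid both alleles of a gene sit in the same nucleus and meet the same transcription factors. A steady difference between them can therefore reflect something carried by the chromosome itself, as opposed to a difference in the cell's state. Examples are a sequence variant in a promoter or enhancer, or an epigenetic mark such as an imprint. A measured share can also be shifted by reference bias, wrongly annotated SNPs, reads of related genes, feeder RNA or unequal copies. The part of these in the shares below was not tested. Genes expressed from a single allele include imprinted genes, whose active copy depends on the parent, and genes that are switched on at random on 1 chromosome and then kept in all descendants of a cell.

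The results turned on a small set of genes, and the promoters of 4 of them are shown as RefSeq gives them on GRCm38.p6, the 250 bases before the start site, 5' to 3' on the gene's strand. They are reference sequence and do not show the Cast allele. The first is that of Nanog, the homeobox factor of naive pluripotency, whose Cast allele was the more abundant (chr6:122707239-122707488, plus strand), with the letters TTTGCAT (octamer-like) and ACAATG (Sox-like) in capitals. The next, for 2 genes read mostly from the Dom allele, are Ptbp1, a splicing regulator (chr10:79854182-79854431, plus strand), and Tubb4b, a beta-tubulin (chr2:25224703-25224952, minus strand). The last is that of Mllt3, a subunit of a transcription elongation complex (chr4:88033408-88033657, minus strand), whose allelic share differed most between the lines. In these 3, CpG dinucleotides are in capitals.
Nanog: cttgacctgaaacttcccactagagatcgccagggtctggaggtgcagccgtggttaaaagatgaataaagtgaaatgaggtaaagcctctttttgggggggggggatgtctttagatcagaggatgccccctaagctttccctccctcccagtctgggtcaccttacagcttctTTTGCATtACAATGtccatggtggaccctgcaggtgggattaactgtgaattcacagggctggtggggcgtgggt
Ptbp1: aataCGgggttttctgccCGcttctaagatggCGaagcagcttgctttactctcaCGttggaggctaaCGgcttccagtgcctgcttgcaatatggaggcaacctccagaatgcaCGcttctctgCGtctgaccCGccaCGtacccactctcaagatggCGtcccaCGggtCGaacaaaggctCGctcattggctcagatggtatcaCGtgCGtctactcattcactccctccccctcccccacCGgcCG
Tubb4b: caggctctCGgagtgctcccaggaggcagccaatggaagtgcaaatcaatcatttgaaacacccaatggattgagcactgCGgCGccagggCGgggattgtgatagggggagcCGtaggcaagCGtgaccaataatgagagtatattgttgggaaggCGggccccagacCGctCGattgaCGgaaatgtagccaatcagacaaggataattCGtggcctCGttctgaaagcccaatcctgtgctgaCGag
Mllt3: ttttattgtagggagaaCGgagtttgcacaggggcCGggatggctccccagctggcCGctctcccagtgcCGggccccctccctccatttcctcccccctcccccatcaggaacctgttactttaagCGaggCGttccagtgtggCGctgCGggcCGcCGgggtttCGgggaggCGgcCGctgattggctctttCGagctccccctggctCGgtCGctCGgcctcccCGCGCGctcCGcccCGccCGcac
In the Nanog window both motifs stand 1 base apart, and the first begins 75 bases before the start site. Searched on both strands, and not overlapping each other there, TTTGCAT was present in 4.12% and ACAATG in 10.7% of 32851 promoter windows of this length. The windows held 17 CpGs for Ptbp1, 13 for Tubb4b and 23 for Mllt3, beside 3 for Nanog and a median of 17 over the 4291 members with a window.

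Between 14877384 and 24309806 fragments were counted per sample, of which 44.2% to 46.4% overlapped a discriminating SNP and were assigned to an allele. The members took 58.6% to 59.8% of those, with a median of 293 to 518 allelic fragments per gene. ES cell markers were present throughout: Pou5f1 lay between 53.6 and 120.0 CPM (a gene's fragments scaled to a fixed library total), Nanog between 55.1 and 82.5 and Esrrb between 399 and 555. Of the neural progenitor markers, Sox1 was listed at 0 in every sample, Fabp7 at 0 to 0.123 CPM and Olig2 at 0 to 0.165. Pax6 and Nes were present in every sample, at 3.77 to 19.3 and 10.5 to 26.3 CPM.

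The members were centred just below equal expression. The median Cast share, Cast-assigned fragments as a percent of Cast plus Dom, was 46.9% ± 0.233 (SD, n = 7 samples) and ranged from 46.5% to 47.2%. Most genes lay near it, since 78.1% of members had a mean share from 40% to 60%, and the 5th and 95th percentiles over genes were 30.7% and 60.4%. A gene's share varied little between samples, with a median SD of 2.71 percentage points, 4.60 points for the 1574 members under 200 fragments and 1.24 points for the 683 members over 2000. The spread across genes of the mean share was 9.31 points. The shape was uneven, with 33 members at a mean share of 10% or less and 6 at 90% or more.

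**Figure D1:**
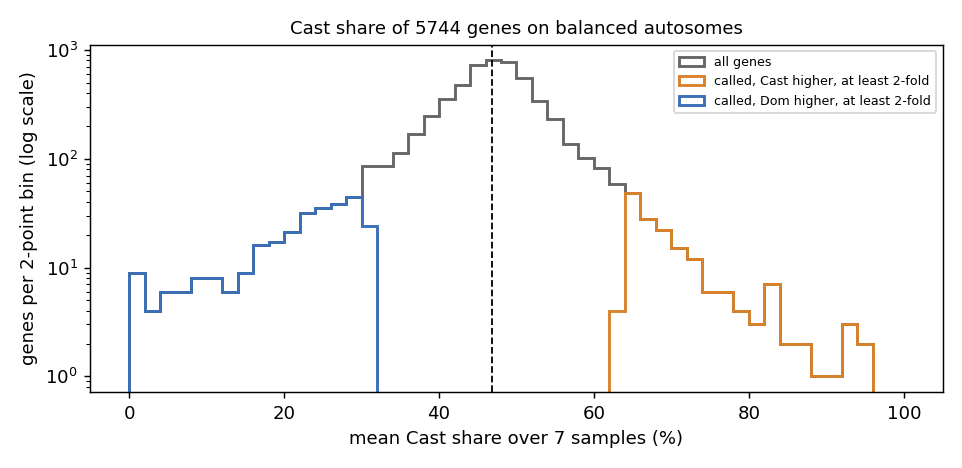
Number of members per 2-point bin of mean Cast share (x axis, percent, 7 samples) on a log y axis; grey outlines are all 5744 members, orange and blue the 166 and 283 called members at least 2-fold higher from Cast or Dom, and the dashed line is the mean of the sample medians. The peak sits near 46.9%, and the blue tail, which reaches 0%, holds more genes than the orange one.

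Allele differences were tested with each sample's Cast and Dom counts as a pair, centred on that sample's median share, with edgeR's quasi-likelihood test and Benjamini-Hochberg adjustment over the 9197 genes of all chromosomes that met the count minimum. Log2 ratios below are centred Cast over Dom, whereas shares are not centred. At an adjusted p under 0.05, 3585 members were called (62.4%, beside 59.0% of all genes in the fit), 1767 with more Cast RNA (30.8%) and 1818 with more Dom RNA (31.7%). Without centring, which moves the median log2 ratio of the members to -0.18, the same test called 928 and 2969. Most of the called differences were small, and 69.2% of them were under 1.5-fold. At least 2-fold, 449 members were called (7.82%, beside 10.1% of all genes in the fit, which include the X and the autosomes left out): 166 with Cast higher (2.89%) and 283 with Dom higher (4.93%). At 4-fold the counts were 25 and 73, and at 8-fold 7 and 35. Of the 449, 448 lay on the same side of the centre in all 7 samples, beside 53.8% of all members, and each of the 449 was also called in the same direction in each line alone, on the same samples. Without iXist-ChrX-Dom replicates 3 and 4, 3048 members were called and 447 at least 2-fold.

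The most Cast-sided genes were read almost wholly from 1 allele in every sample. Ndst4, a heparan sulfate-modifying enzyme (chromosome 3), had a Cast share of 95.5%, 93.8%, 98.4% and 95.6% in iXist-ChrX-Dom and of 94.1%, 93.3% and 93.2% in iXist-ChrX-Cast. Its log2 ratio was 4.42 ± 0.204 (SE, edgeR adjusted p = 8.52e-07), from 68 to 200 allelic fragments per sample. Ndst4 was the single member at or above 90% Cast in all 7 samples. Nell1, a secreted glycoprotein with EGF-like repeats on chromosome 7, rested on more reads, 583 to 1565 per sample, and had 93.7% to 95.8% Cast in iXist-ChrX-Dom and 87.5% to 91.2% in iXist-ChrX-Cast. Slc4a10, a sodium-bicarbonate transporter on chromosome 2, lay between 88.2% and 94.7%, and Erg, an ETS-family transcription factor on chromosome 16, between 89.1% and 97.3%. None of these 4 genes had a sample below 87.5%, against a centre of 46.9%. The other 6 of the 10 largest ratios were Vmn2r101 (89.5% to 98.1%), Raet1a (89.0% to 95.4%), Pgpep1l (80.6% to 94.9%), Sec31b (84.1% to 90.8%), Pcdha4-g (84.2% to 89.5%) and Mrps36 (80.3% to 92.2%). Vmn2r101, a vomeronasal receptor, and Raet1a, an NKG2D ligand, belong to families of near-identical copies, where a read can be lost or placed on another copy, and Pcdha4-g spans the clustered protocadherins, so these are uncertain.

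The most Dom-sided genes went further, to no Cast read at all. Rps4l, a ribosomal protein S4-like gene of chromosome 6, had no Cast fragment in any of the 7 samples against 1290 Dom fragments in all (97 to 259 per sample), which allows a Cast share of up to 0.233% (3 fragments over all samples, counting error only) and puts Dom at least 430-fold higher. Gm2373, an unnamed long noncoding RNA of chromosome 13, was far better covered, with 2482 to 5359 allelic fragments per sample. Its Cast share was 1.00%, 1.05%, 0.71% and 0.411% in iXist-ChrX-Dom and 1.01%, 0.903% and 0.732% in iXist-ChrX-Cast, a log2 ratio of -6.76 ± 0.186 (adjusted p = 5.78e-08). The lines overlapped, and no sample was above 1.05%. Kcnj3, a subunit of a G protein-gated potassium channel on chromosome 2, had 0.999% to 3.07% Cast over 683 to 2008 fragments. Tm4sf1, a four-pass membrane protein, had 0% to 1.23%, Clca4 0% to 2.67%, G630055G22Rik 0% to 3.17%, Caps2 0% to 2.91%, Xirp2 0% to 5.77% and 4933433G19Rik 0% to 4.11%. Tenascin-C (Tnc), an extracellular matrix glycoprotein, closed the 10 at 0.282% to 6.77%, with its highest value in iXist-ChrX-Dom replicate 1. In each of these 10 genes the highest sample was below 7%.

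**Figure D2:**
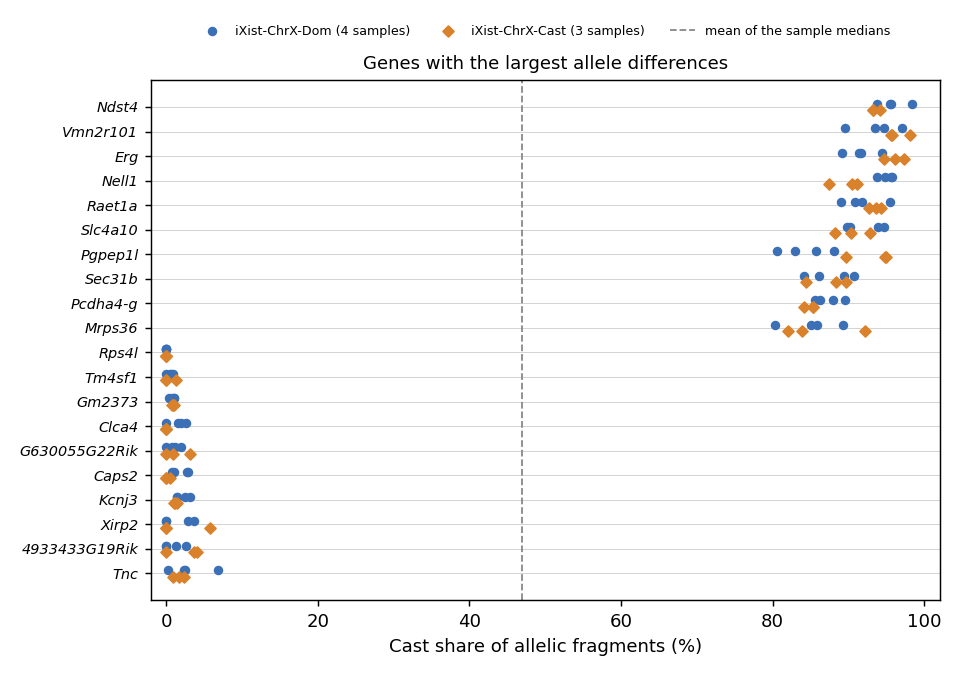
Cast share (x axis, percent) of the 10 members with the largest and the 10 with the smallest centred ratio, 1 point per sample; circles are the 4 iXist-ChrX-Dom and diamonds the 3 iXist-ChrX-Cast samples, and the dashed line is the mean of the sample medians. The upper 10 lie above 80% and the lower 10 below 7% in every sample; genes were required to lie on 1 side of the centre in all samples.

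Single-allele expression was counted by share, with no test: 23 members were at or below 10% Cast in every sample and 1, Ndst4, at or above 90%. Without iXist-ChrX-Dom replicates 3 and 4, 30 members met these limits. A gene silent on one allele enters the count minimum through the other allele, so these numbers describe the genes that were covered. The 23 covered several functions. Cell surface and secreted products were Cd44, the hyaluronan receptor (1.98% to 5.81% Cast), Cd302, Fgf1, Nphs1, Tnc and Tm4sf1. Receptors and channels were Chrm3 and Tacr3, the muscarinic M3 and neurokinin 3 receptors, and Kcnj3. Genes of general cell function were Tubb4b, Vps52, a subunit of an endosome-to-Golgi tether, Psma8, a proteasome subunit of the germline, and Sntb1, a syntrophin. Tubb4b varied little between samples, at 6.85%, 6.93%, 6.77% and 6.43% in iXist-ChrX-Dom and 7.19%, 5.86% and 7.84% in iXist-ChrX-Cast, from 751 to 1372 fragments per sample (log2 -3.59 ± 0.0545, adjusted p = 4.33e-09). Ptbp1 missed the limit by 1 sample, at 6.54%, 9.59%, 9.63% and 10.5% in iXist-ChrX-Dom and 6.12%, 6.24% and 8.06% in iXist-ChrX-Cast. Its log2 ratio of -3.35 ± 0.127 rested on 1569 to 2906 fragments per sample (adjusted p = 2.83e-07). Per length, Tubb4b and Ptbp1 were well above most members, at 35.9 and 15.3 CPM per kb beside a median of 1.52. How many SNPs lie behind each gene was not analysed here, and the study's own methods name wrongly annotated single SNPs as a source of apparently monoallelic genes; their part in these values was not tested. Tubulin, ribosomal protein and proteasome genes also have close copies elsewhere in the genome.

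The feeder fibroblast markers were Dom-sided as a list. Of the 29 listed genes in the files, 10 were members, and 8 of them were called, each with Dom higher and 5 at least 2-fold, with a median log2 ratio of -0.98 beside 0.00 over all members. Col1a2, a fibrillar collagen chain, had a Cast share of 19.5%, 10.9%, 6.25% and 7.48% in iXist-ChrX-Dom and of 6%, 5% and 7.32% in iXist-ChrX-Cast. Vim, the vimentin filament gene, had 28.9%, 18.9%, 19.5% and 18.5% in the first line and 12.5%, 9.30% and 21.6% in the second. Cav1, the caveolin gene, ranged from 4.17% to 16.4%. All 3 were below the centre in every sample, while Fstl1 (36.7% to 54.5%) and Timp3 (44.6% to 52.9%) straddled it and were not called. Of the defining markers, Lum was listed at 0 to 0.205 CPM, Postn at 0.269 to 1.18, Col3a1 at 4.43 to 9.95, Dcn at 2.02 to 4.16 and Pdgfrb at 0.672 to 1.64, and Fn1, which ES cell cultures also express, at 729 to 1047. Without Fn1 the other 8 markers together had 23.2 to 37.2 CPM and a Cast share of 12.6% to 28.1%, against 45.5% to 51.2% with it. These pooled shares include Fn1 and Col3a1 on chromosome 1 and Col1a1 on chromosome 11, which are not among the balanced autosomes; Col1a1 had 46.0% Cast and Thy1, on chromosome 9, 31.0% over all samples. Tnc, Cd44 and Tm4sf1, among the single-allele genes, are also expressed by fibroblasts, and the part of remaining feeder RNA in their shares was not tested. Fewer transcribing cells and less RNA per cell cannot be told apart in bulk samples.

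Pluripotency genes were mostly near the centre, with exceptions in both directions. Of the 30 listed genes on these chromosomes 26 were members, 18 of them called, 12 with Cast and 6 with Dom higher (69.2%, near the 62.4% of all members). Nanog had the largest ratio, with a Cast share of 76.2%, 73.3%, 67.9% and 68.6% in iXist-ChrX-Dom and 73.3%, 72.1% and 68.7% in iXist-ChrX-Cast (log2 1.51 ± 0.0818, adjusted p = 1.91e-06, 2.85-fold). Every sample thus lay above 67%, and the lines overlapped. Foxd3, a forkhead repressor, was Dom-sided at 17.5% to 31.0% (log2 -1.42), as was Dppa2, a chromatin-associated SAP-domain factor, at 28.0% to 38.8% (log2 -0.74). Klf4 was Cast-sided at 52.0% to 61.0% (log2 0.58). Pou5f1, the octamer-binding core factor, lay between 32.2% and 49.8% and was not called (adjusted p = 0.27), nor was Tet2 (0.82).

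Genes of Xist silencing, Polycomb and DNA methylation had 34 members, of which 18 were called with Cast higher and 5 with Dom higher (67.6% called, near the 62.4% of all members). Ptbp1, described above, was the most extreme, and Matr3, a nuclear matrix RNA-binding protein and reported partner of Ptbp1, lay on the opposite side, with a Cast share of 66.9% to 70.8% (log2 1.33 ± 0.0375, adjusted p = 6.37e-08, 2.52-fold). The third was Phf19, an accessory subunit of Polycomb repressive complex 2, at 53.5% to 71.7% (log2 1.03). Jarid2 and Tet1, each with at least 11740 fragments per sample, were within 0.02 of the centre on the log2 scale and were not called (adjusted p = 0.991 and 0.512).

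Imprinted genes carry a parental mark that silences 1 copy, some of them only in particular tissues. None of the imprinted members met the single-allele limits. Of the 15 members listed as expressed from the paternal copy, 9 were called with Cast and 4 with Dom higher, and of the 16 listed as maternal 6 and 5, with median log2 ratios of 0.30 and -0.06. The shares called were 86.7% and 68.8%, beside 62.4% of all members. The call of Kcnq1ot1 was lost on leaving out any 1 iXist-ChrX-Dom replicate (edgeR adjusted p from 0.0644 to 0.101), or iXist-ChrX-Cast replicate 1 (0.0919) or 2 (0.0885). It was also lost in iXist-ChrX-Dom alone (0.0710) and iXist-ChrX-Cast alone (0.257), among other settings. That of Kcnq1 was lost on leaving out iXist-ChrX-Dom replicate 1 (0.0621) or 3 (0.0502) or iXist-ChrX-Cast replicate 2 (0.0748), and in iXist-ChrX-Dom alone (0.0593), among other settings. Snrpn, a paternally expressed splicing factor gene, came nearest, at 6.43% to 13.2% Cast (log2 -3.14). Its counts come from the stretch outside Snurf (chr7:60005157-60140219), since fragments that overlap more than 1 gene were not counted. In the paternal list Plagl1 (21.4% to 31.2%) and Sfmbt2 (28.0% to 34.3%), were also Dom-sided, whereas Peg3 (59.9% to 64.3%) and Peg10 (57.3% to 60.9%) were Cast-sided. The noncoding RNAs Kcnq1ot1, Airn, Nespas and H19 had mean shares of 45.9%, 52.1%, 47.5% and 44.4%. Of the maternal list, Igf2r, the receptor that clears Igf2, had 39.2% and Cd81, a tetraspanin, 33.5%. Without centring, Atp10a, H13 and Ube3a, called with Cast higher, turn to the Dom side. Atp10a also lost its call on leaving out any 1 iXist-ChrX-Dom replicate (edgeR adjusted p from 0.0851 to 0.0906) or iXist-ChrX-Cast replicate 3 (0.0511). The same held with TMM scaling (0.169) and with the replicate number as a block (0.104). In iXist-ChrX-Cast alone its log2 ratio was 0.0123 (edgeR adjusted p = 0.885).

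The other fixed lists were described in the same way, beside the 62.4% called and 7.82% at least 2-fold among all members. Innate immunity genes had 15 members, of which 4 (26.7%) were at least 2-fold and all 4 Cast-sided: Nlrp4f, a NOD-like receptor of the oocyte family (75.6% to 80.8% Cast, log2 1.98), Ulbp1, an NKG2D ligand (73.0% to 79.1%, log2 1.90), Nod1, a bacterial peptidoglycan sensor (61.1% to 75.9%, log2 1.16), and Zc3hav1, the zinc finger antiviral protein (59.6% to 68.6%, log2 1.08). The glutathione S-transferase, cytochrome P450 and aldehyde dehydrogenase families had 16 members, 12 called and 3 at least 2-fold, led by Cyp2b23 (62.2% to 79.7%). Among 190 zinc finger genes named Zfp, 60 were called with Cast and 57 with Dom higher, and 17 were at least 2-fold (8.95%). Of the housekeeping complexes, 2 of 49 ribosomal protein genes (4.08%), 1 of 21 proteasome genes (4.76%) and 0 of 51 respiratory chain genes were at least 2-fold, and with so few genes nothing is read from these shares against the 7.82% of all members. The ribosomal pair was Rps4l and Rpl13a, the latter with a Cast share of 65.4% to 69.2%. The 2 MHC members were H2-K1, a classical class I heavy chain, at 0.98% to 5.71% Cast, and H2-DMa at 49.1% to 58.6%. Whether reads of H2-K1, Ulbp1 or Nlrp4f were lost or placed on related genes was not tested.

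**Figure D3:**
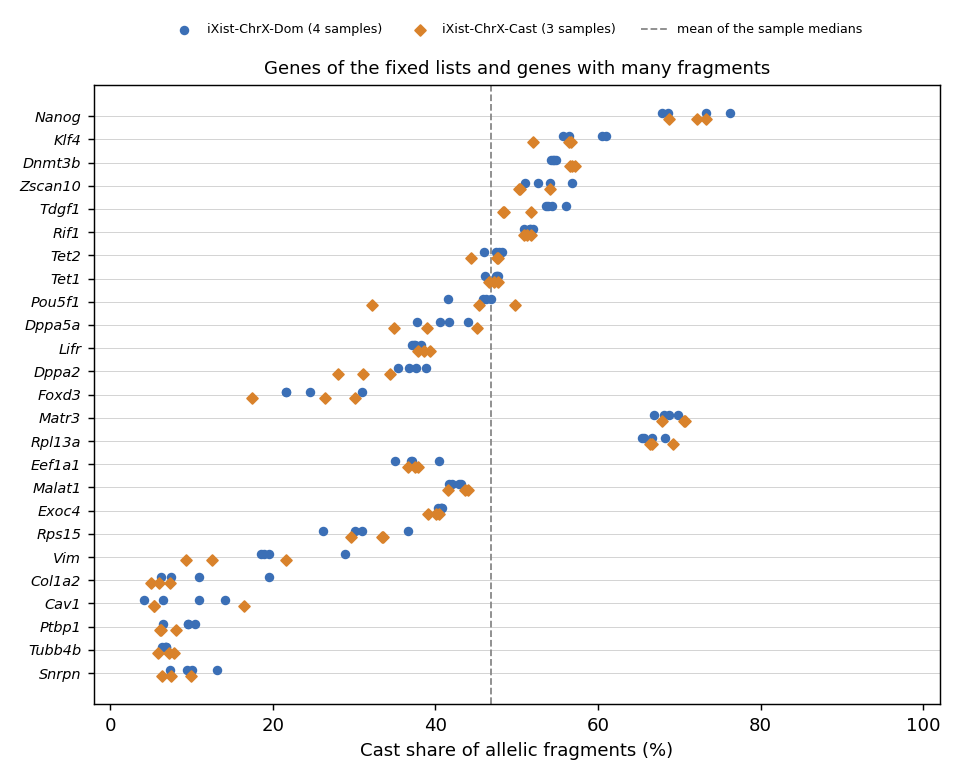
Cast share (x axis, percent) of members from the fixed lists and of members with many fragments, 1 point per sample; circles are iXist-ChrX-Dom, diamonds iXist-ChrX-Cast, and the dashed line is the mean of the sample medians. Nanog, Matr3 and Rpl13a lie above 65% in every sample, and Ptbp1, Tubb4b and Snrpn below 14%.

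Where reads were most plentiful, differences were modest and precise. The 10 members with the most allelic fragments ranged from a mean share of 37.4% for Eef1a1, translation elongation factor 1 alpha, to 60.4% for Tenm4, a teneurin. Malat1, an abundant nuclear noncoding RNA, had 41.5% to 44.0% Cast over 36798 to 55358 fragments per sample (log2 -0.24 ± 0.0326, adjusted p = 0.000353). Exoc4, an exocyst subunit with long introns, had 39.1% to 40.8% (log2 -0.39). Rif1, a regulator of replication timing, was Cast-sided at 50.9% to 52.0% (log2 0.27). Eef1a1 has many processed copies and is uncertain. Across all members the share called increased with depth, from 52.2% under 200 mean fragments to 76.9% over 2000, whereas the share at least 2-fold decreased from 11.5% to 4.25%.

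Members with large differences were described by level, transcript type and promoter. Level is tied to the count minimum that chose the members, and is given as a description. Per length, the 166 Cast-sided and 283 Dom-sided members at 2-fold had median levels of 0.560 and 0.476 CPM per kb, against 1.61 in the other 5295. Long noncoding RNAs stood out, since 37 of 110 (33.6%) were at least 2-fold, against 7.27% of 5600 protein-coding members, and 27 of the 37 were Dom-sided. Trp53cor1, the p53-induced lincRNA-p21 locus, had 14.5% to 27.1% Cast. At the other end Gm6639, 2610037D02Rik and 2410021H03Rik had mean shares of 82.1%, 80.4% and 79.7%. Of the members with a promoter window, 118 Cast-sided, 195 Dom-sided and 3978 others, 26.3%, 13.3% and 6.33% had fewer than 5 CpGs in it. Since only 74.7% of all members had a window, nothing is read from this difference. Spearman's rho across genes between the size of the log2 ratio and CPM per kb was -0.221 over 5744 genes, which are not independent and share the same libraries and depth.

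Neighbouring genes shared a direction somewhat more often than genes further apart. Among next neighbours that were both called, 58.3% of 2303 pairs had the same direction, and 51.8% of 2135 pairs did when 20 members apart. At 2-fold, 28 of 43 neighbouring pairs had the same direction, and 18 of 42 pairs did when 20 members apart, so the pairs are few. The longest runs held 3 members each and were Dom-sided. On chromosome 17 these were Vps52, H2-K1 and Rxrb (chr17:33955881-34038403). On chromosome 6 they were Creb5, Chn2 and Scrn1 (chr6:53573373-54566382), and on chromosome 9 Zbtb38, E030011O05Rik and Slc25a36. The chromosome 6 run lies in the segment described below, where the median Cast share was lower in iXist-ChrX-Dom than in iXist-ChrX-Cast. The part of that shift in this run was not tested. Vps52 had 3.94% to 5.91% Cast and Rxrb, a retinoid X receptor, 13.8% to 29.8%. Fau and Mrpl49, next to each other on chromosome 19, were both Cast-sided, at mean shares of 68.3% and 68.7%. These runs were picked after their values were seen.

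Not every stretch of these chromosomes was balanced. Chromosome medians, averaged over samples, lay between 45.8% for chromosome 3 and 47.6% for chromosome 4, and chromosome 19 was lowest in iXist-ChrX-Cast replicate 3, at 45% beside 46.1% to 47.8% in the other samples. On chromosome 6, the 85 members that start between 45 and 80 Mb had a median Cast share of 39.7% in both iXist-ChrX-Dom replicates 3 and 4, against 44.2% and 44.9% in replicates 1 and 2 and 46.7%, 46.8% and 46.7% in iXist-ChrX-Cast. The 357 other members of the chromosome lay between 46.5% and 47.6% in all samples. In the segment the total CPM of a gene in replicates 3 and 4 was 0.87 of that in replicates 1 and 2 at the median, beside 0.989 in the rest of the chromosome. Over all members outside the segment it was 0.997. Single 5 Mb blocks of the chromosome outside the segment ranged from 0.773 (10 to 15 Mb, 8 members) to 1.08 (85 to 90 Mb, 30 members). Those inside it ranged from 0.546 (75 to 80 Mb, 1 member) to 0.919 (70 to 75 Mb, 22 members). Whether the lower total goes with the lower Cast share was not tested. Eif2ak3, the PERK kinase of the endoplasmic reticulum, shows the pattern, with 43.1% and 40.8% in replicates 1 and 2, 35.9% and 35.2% in replicates 3 and 4, and 45.3% to 46.3% in iXist-ChrX-Cast. Kdm3a, a histone H3K9 demethylase, had 47.5% and 49.7%, then 42.0% and 44.2%, and 48.8% to 51.9%. The bounds of this segment were set after its values were seen, so no test was made of the segment as a whole.

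**Figure D4:**
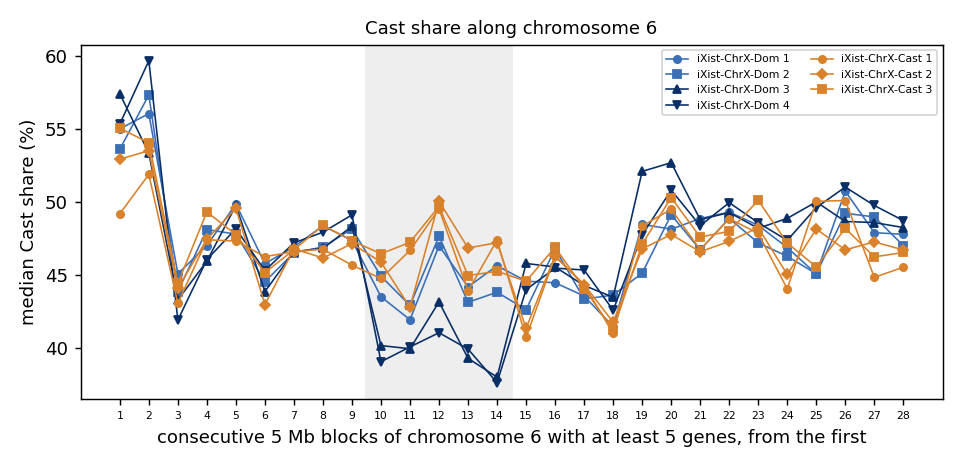
Median Cast share (y axis, percent) of members in consecutive 5 Mb blocks of chromosome 6 with at least 5 members, 1 line per sample; light and dark blue are iXist-ChrX-Dom replicates 1 and 2 and replicates 3 and 4, orange is iXist-ChrX-Cast. In the shaded blocks, which lie between 45 and 80 Mb, the dark blue lines lie between 37.6% and 43.2%, below the other samples.

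Allele differences were mostly shared by the lines. In the test of the allele by line interaction, 182 members were called (3.17%, beside 21.6% of all genes in the fit and 52.2% of the genes that are not members), 75 with a higher Cast share in iXist-ChrX-Dom and 107 with a lower one; 499 had an unadjusted p under 0.05. This count is fragile. With p-values of the same fit adjusted over the members alone it was 18. A fit of the members alone called 34 and DESeq2 51. It was 103 without iXist-ChrX-Cast replicate 1, 111 without replicate 2 and 151 without iXist-ChrX-Dom replicates 3 and 4. Of the 182, 27 lay in the chromosome 6 segment (31.8% of its 85 members, beside 2.74% of the 5659 other members), each with a lower Cast share in iXist-ChrX-Dom. Without iXist-ChrX-Dom replicates 3 and 4, 7 of the 85 were called, 6 of them with a lower share. The segment's bounds were set from these same shares, so the number of calls and their direction are a description. The lines did not overlap in 156 of the 182 called members, beside 9.49% of all members. The 182 were called for a line difference on these same shares, so nothing is read from this.

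Mllt3 stood far from the rest. Its Cast share was 3.96%, 2.17%, 1.78% and 2.22% in iXist-ChrX-Dom and 31.5%, 24.9% and 30.8% in iXist-ChrX-Cast, from 495 to 928 allelic fragments per sample. Both lines favoured the Dom allele, and the log2 ratio was lower by 4.01 ± 0.187 (SE) in iXist-ChrX-Dom (edgeR adjusted p = 3.92e-12). In the main fit, DESeq2 and the fit of the members alone its difference lay between -4.13 and -3.67 and stayed called. The same held in replicates 1 and 2 of both lines, and without iXist-ChrX-Dom replicate 3, replicate 4 or both. It also held on leaving out any 1 iXist-ChrX-Cast replicate. The other settings of this test were not read out for Mllt3. Prkaa2, a catalytic subunit of AMP-activated kinase, was near balance in the first line, at 53.0%, 49.6%, 50.6% and 50.2%, and Cast-sided in the second, at 72.1%, 73.7% and 67.6% (difference -1.26 ± 0.119, adjusted p = 1.01e-07). Ifnar1, a subunit of the type I interferon receptor, had 32.3% to 38.2% in iXist-ChrX-Dom and 48.7% to 66.3% in iXist-ChrX-Cast (difference -1.28 ± 0.187, adjusted p = 2.83e-05). The pseudogene Ppp4r1l-ps had 37.2% to 40.7% and 20.2% to 21.8% (difference 1.26 ± 0.14, adjusted p = 8.95e-07). The lines did not overlap in these 4 genes, which were picked for their large line differences. Pgpep1l, the other of the 5 largest differences, had 80.6% to 88.1% and 89.7% to 94.9% (difference -1.34, adjusted p = 0.00684), and was not called in the fit of the members alone, in replicates 1 and 2 of both lines, or without iXist-ChrX-Cast replicate 2. Each line is labelled as 1 clone, so a change particular to a clone and an effect of the Xist allele cannot be told apart.

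**Figure D5:**
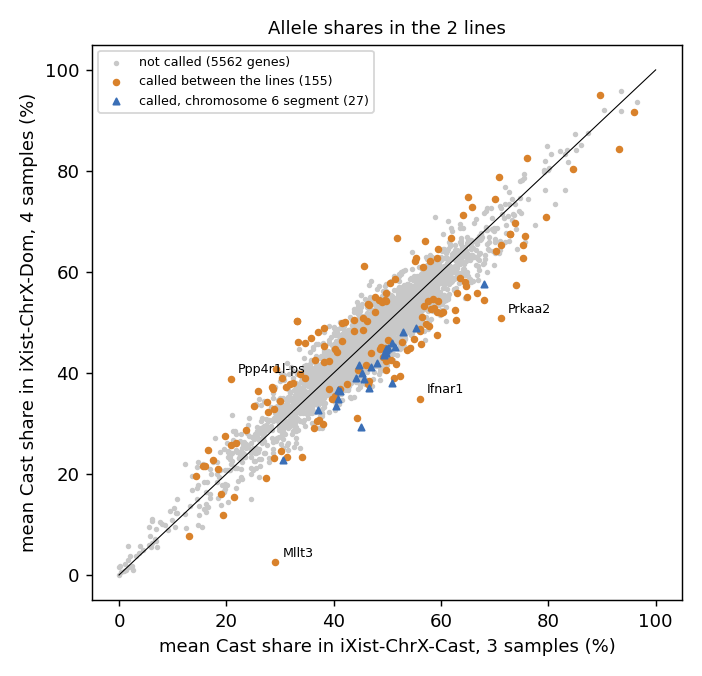
Mean Cast share of each member in iXist-ChrX-Cast (x axis, percent, 3 samples) against iXist-ChrX-Dom (y axis, percent, 4 samples), with the line of equality; orange points are 155 members called between the lines, blue triangles the 27 called members of the chromosome 6 segment and grey points the other 5562. Mllt3 lies far below the line, and the triangles lie below it as a group.

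The count minimum of 50 decided which genes entered. Just inside, with 50 allelic fragments in the lowest sample, Isoc2a, 2510002D24Rik, Ccdc61 and Elavl3 had mean Cast shares of 23.6%, 36.6%, 51.0% and 58.5%. Just outside, with 49, Abat, 9530077C05Rik, Cdh18 and Snrpc had 50.8%, 33.3%, 12.3% and 51.9%, with SDs of 4.42 to 5.54 percentage points over the 7 samples.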

How the data were processed

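Chromatin-associated RNA of 7 samples had been sequenced as read pairs. The deposited counts are whole fragments per gene as the authors made them: rRNA reads removed with bowtie2 (2.3.2), STAR (2.4.2a) alignment, unique hits, to mm10 with strain SNPs masked as N, allele assignment with SNPsplit and strand-aware counting with featureCounts (1.5.2) on NCBI RefSeq transcripts. The authors' allelic ratio tables hold a fraction, Xi over both alleles, for X-linked genes; each fraction equalled the ratio of the count columns (246 and 399 genes), which fixed which column is Cast. The part of reference bias in the shares was not tested.

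The members and gene lists were chosen with earlier results of these data known. Cast and Dom counts were tested with edgeR (sample as block, allele, and allele by line), as 14 columns scaled by total and median Cast share, over 9197 genes with at least 50 allelic fragments in every sample. SEs were taken from the F statistics. DESeq2 and limma were alternatives. On simulated counts for this comparison (9197 genes) edgeR recovered 94.1%, 100% and 100% of log2 changes of 0.5, 1 and 2, with 3.92% of calls false. There 68, 66 and 66 members had these changes and every other gene none, with the spread of the members' own fit. In the data 62.4% of members were called, so these rates may not hold for the real calls. Named genes were the 10 largest and 10 smallest called ratios on 1 side in every sample, the 10 with most fragments, all imprinted members, 3 per other list, the 5 largest line differences and 4 on each side of the minimum; other named genes were picked after their values were seen. Replicates were checked for duplicates, and their total counts differed beyond counting noise (mean chi-square per gene 6.53 to 40.1). It was 14.9 and 6.53 for iXist-ChrX-Dom replicates 1 and 2 and replicates 3 and 4, and 9.76 for iXist-ChrX-Cast replicates 1 and 2. The other pairs had 23.8 to 40.1. For the split between alleles it was 1.16 for iXist-ChrX-Dom replicates 3 and 4, 1.14 for iXist-ChrX-Cast replicates 1 and 2, and 1.68 to 1.94 for the other pairs. The same replicate number did not pair samples across lines (correlations of deviations 0.0537, 0.0416 and 0.0687). Intervals and limits cover counting error only. One result is not reported here.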

Additional observations from a re-analysis of the deposited data

Results flagged for a closer look

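Among 100 named genes, 5 had 1 iXist-ChrX-Dom sample far from the other 3 by Dixon's criterion, and chance gives about 1 in 20. These were Vim in replicate 1 (28.9% Cast, the others 18.5% to 19.5%), Impact in replicate 1 (55.6%, the others at 54.0%), Nespas in replicate 2 (46.0%, the others 47.7% to 47.9%), Zfp560 in replicate 1 (6.96%, the others 9.98% to 10.2%) and Ccdc61 in replicate 4 (42.2%, the others 51.9% to 53.1%). The iXist-ChrX-Cast group has 3 samples and was not examined in this way.

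The lines differed by the interaction test in 12 of the 100 named genes, beside 3.17% of all members. Mllt3, Pgpep1l, Ifnar1, Prkaa2 and Ppp4r1l-ps were named for their large line differences, so nothing is read from this count. With p-values of the same fit adjusted over the members alone, 18 members were called. Which of the 12 stay called there was not read out. The log2 ratio of Cast over Dom was higher in iXist-ChrX-Dom by 1.26 for Ppp4r1l-ps, 1.10 for Nell1, 0.658 for Cyp2b23, 0.349 for Dppa2, 0.269 for Sfmbt2 and 0.245 for Tenm4. It differed by -4.01 for Mllt3, -1.34 for Pgpep1l, -1.28 for Ifnar1, -1.26 for Prkaa2, -1.14 for Erg and -0.474 for Mest. Each line is labelled as 1 clone.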

How the results depend on the processing

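Of 2156 alternative values for the 100 named genes, 2059 kept direction and side of the threshold, 74 were no longer called, 15 became called and 8 reversed, and 70 genes kept theirs in every alternative. Reversed without centring were Tle4 (-0.0636), Jarid2 (-0.18), Tet1 (-0.16), Nespas (-0.14), Atp10a (-0.0638), H13 (-0.0284) and Ube3a (-0.0388), and Ifnar1 reversed in iXist-ChrX-Cast alone (0.55). Replicate numbers did not pair the samples. With the replicate number as a block, 3108 members were called, 461 at least 2-fold and 214 between the lines. The number called was 2381 with a minimum of 200 fragments and 2109 in replicates 3 and 4 alone, and 3335 to 3400 leaving out 1 replicate. The number at least 2-fold was 675, 198 and 1349 with minimums of 20, 200 and none, 1104 at 1.5-fold and 98 at 4-fold, and 437 to 467 leaving out 1 replicate. Single-allele genes numbered 8 at limits of 95% and 5%, 65 at 80% and 20%, 39 by the mean share, and 42 and 9 with minimums of 20 and 200 (24 to 28 leaving out 1 replicate). The mean in place of the median share was 46.4%. Members called between the lines numbered 51 by DESeq2, 34 with members alone, 18 adjusted over members within the same fit and 103 to 215 leaving out 1 replicate. The causes were not tested, apart from the smaller or larger sets that the minimums and limits define. Leaving out iXist-ChrX-Dom replicates 3 and 4, the members of the chromosome 6 segment, or adding a line term were chosen after seeing the data.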
